A study of Arabidopsis thaliana with 4 samples.

Results

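The GASA genes of Arabidopsis thaliana encode small secreted peptides, and 7 of them, GASA1 (AT1G75750), GASA2 (AT4G09610), GASA3 (AT4G09600), GASA4 (AT5G15230), GASA5 (AT3G02885), GASA6 (AT1G74670) and GASA14 (AT5G14920), were taken by their gene identifiers from a count table of 33610 genes. RNA-seq had been made from 2-week-old seedlings of the Col-0 wild type and of a lincRNA11195 mutant, a line altered in a long intergenic noncoding RNA. The 4 groups were wild type untreated, wild type with abscisic acid (ABA) for 12 h, mutant untreated and mutant with ABA for 12 h, each with 3 biological replicates, so 12 libraries in all. No source used here gave the type of mutant allele, the number of independent mutant lines, the ABA dose or a mock treatment, and a difference between the genotypes is one between these lines. The deposited libraries held 14691544 to 22477294 counts, and 3 counts corresponded to 0.129 to 0.185 CPM, the counts scaled by library size, depending on the library.

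GASA peptides (Gibberellic Acid-Stimulated in Arabidopsis) carry a signal peptide and a C-terminal domain with a conserved set of cysteines, and the family is named after GAST1, a gibberellin-induced transcript of tomato. Gibberellin acts by binding GID1 receptors, which leads to the breakdown of DELLA repressors, and several GASA genes are known as targets of this pathway in growing tissue. ABA opposes gibberellin in germination and seedling growth. No gibberellin treatment was among the groups studied here.

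ABA moved the members in opposite directions. GASA3 was near 0 without ABA and was detected in all 6 ABA libraries of both genotypes, whereas GASA5 and GASA6 fell to a small part of their untreated level, and GASA14 and GASA4 fell by less. GASA1, the member with the highest or second-highest level per length in every group, was called higher after ABA in the mutant and not in the wild type, and its libraries overlapped in both genotypes. The difference between its 2 responses was not called, so they were not shown to differ. Between the genotypes, GASA14 was lower in the untreated mutant, and none of the 6 members tested was called under ABA.

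**Figure D1:**
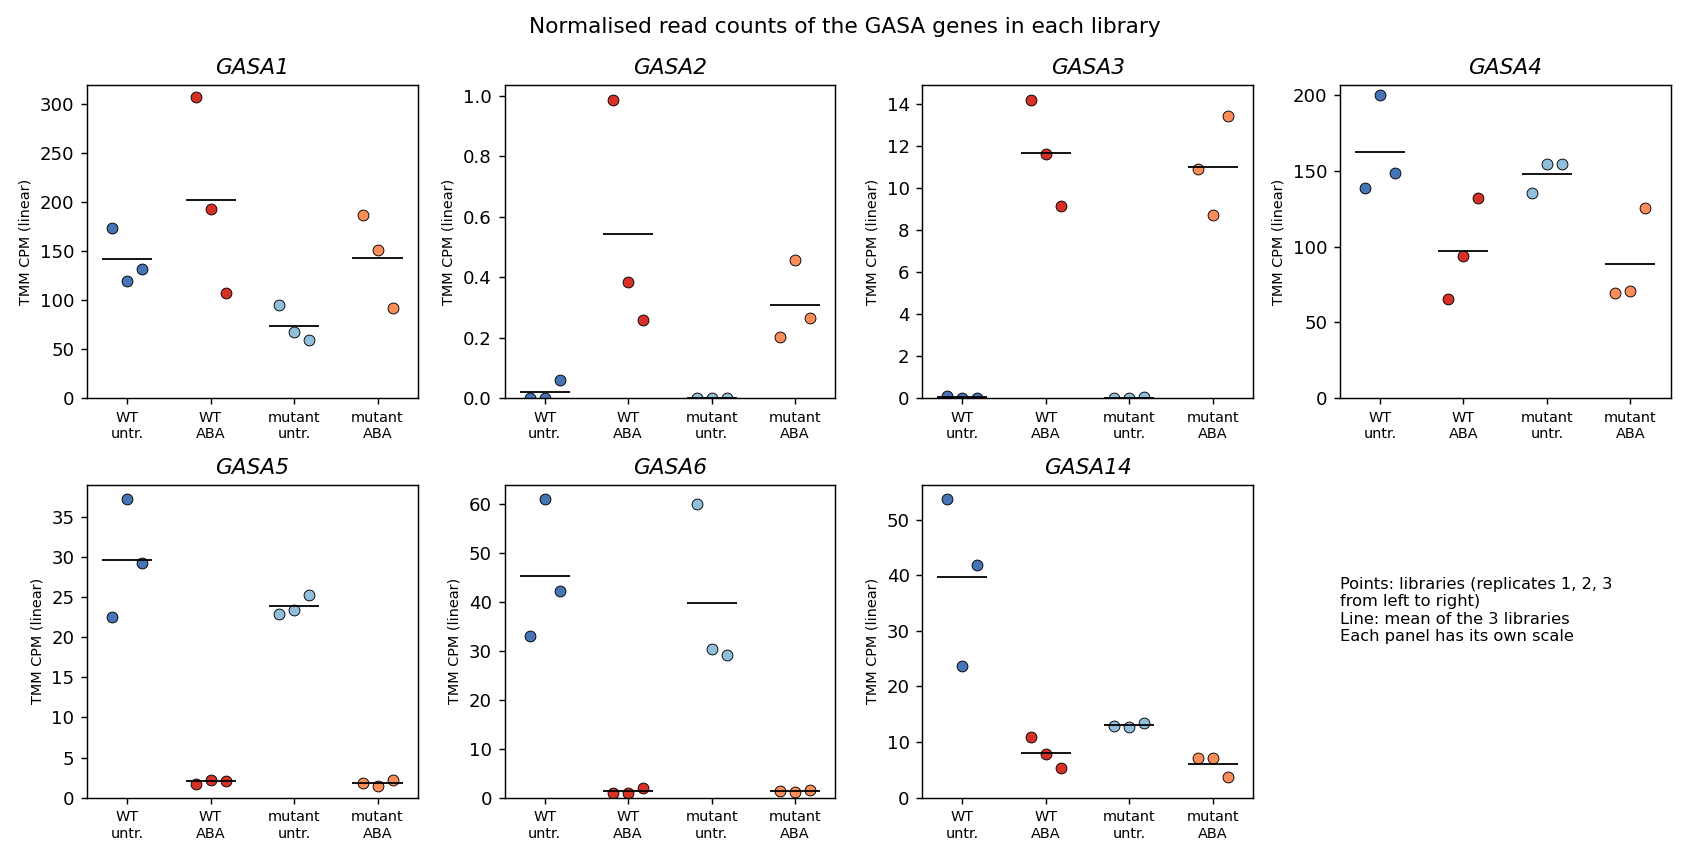
TMM-scaled CPM of each of the 7 GASA genes in the 12 libraries, on linear axes that start at 0 and differ between panels. Points are single libraries by group and lines are group means. GASA3 lies near 0 without ABA and between 8.70 and 14.2 CPM with it, while GASA6 lies between 29.2 and 60.9 CPM without ABA and between 0.956 and 2.02 CPM with it.

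Of the 7 members, 6 passed the filter on low counts and were tested, with GASA3 passing only through its ABA libraries. In the wild type, edgeR's quasi-likelihood test with Benjamini-Hochberg adjustment over 21322 genes called 1 of the 6 higher after ABA (GASA3) and 4 lower (GASA4, GASA5, GASA6 and GASA14). Of all genes tested, 25.2% were called higher and 28.2% lower in this comparison. In the mutant the same test called 2 higher (GASA1 and GASA3) and the same 4 lower, against 21.5% and 21.1% of all genes. The median log2 fold change of the 6 was -1.52 in the wild type and -0.92 in the mutant, where the medians of all genes tested were -0.03 and -0.00. In both genotypes the untreated and ABA libraries did not overlap for GASA3, which was higher, and for GASA4, GASA5, GASA6 and GASA14, which were lower. Of all genes tested, 30.3% were higher and 32.3% lower without overlap in the wild type, and 25.8% and 24.4% in the mutant. Since 1 member could pass the filter only where it was high, these counts and medians describe the 6 and support nothing beyond them. Calls in the text are at an adjusted p under 0.05. The ± after a log2 fold change is its standard error (SE), derived from the fold change and the F statistic of the test.

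GASA3 and GASA2 lie side by side on the minus strand of chromosome 4, GASA3 at chr4:6072804-6073646 and GASA2 at chr4:6074770-6075645 in TAIR10.1, with 1123 bases and 0 annotated genes between them. Both have been described as transcripts of siliques and dry seeds. GASA3 had 2, 0 and 0 counts in the wild type untreated libraries and 288, 243 and 212 after ABA. In the mutant it had 0, 0 and 1 counts untreated and 218, 171 and 252 after ABA. Every ABA library of either genotype was thus far above every untreated one. The scaled levels after ABA were 11.6 ± 2.54 CPM in the wild type and 11.0 ± 2.36 CPM in the mutant (SD, n = 3 each).

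The pooled counts of GASA3 in the wild type, 743 against 2, gave a ratio of 288 with an exact 95% interval of 79.6 to 2390, scaled by library size. In the mutant, 641 against 1 gave a ratio of 658, with an interval of 118 to 26000. These intervals cover counting error only, and their width comes from the 2 and 1 untreated counts. The log2 fold changes of edgeR's quasi-likelihood fit, 7.97 ± 0.51 (adjusted p = 1.92e-07) and 8.90 ± 0.55 (adjusted p = 1.66e-07), depend on the prior count for a gene this close to 0. Their SE does not cover that dependence. With each library left out in turn, they ran from 7.46 to 10.8 in the wild type and from 8.42 to 10.7 in the mutant. Both untreated wild type counts came from replicate 1. In that library RAB18, a dehydrin gene induced by ABA, reached 29.9 CPM, whereas replicates 2 and 3 had 4.25 and 5.17 CPM. A relation of the 2 GASA3 counts to the RAB18 level was not tested.

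GASA2 was the least abundant member and did not pass the filter. It had 0, 0 and 1 counts in the untreated wild type and 20, 8 and 6 after ABA, against 0, 0 and 0 and then 4, 9 and 5 in the mutant. Each ABA library was above each untreated library of its genotype, at a level of at most 20 counts. The pooled wild type counts, 34 against 1, gave a ratio of 26.4 (4.43 to 1070). The mutant counts, 18 against 0, gave a 6.15-fold higher level with 3 counts over the group in place of the 0. That value leaves out the counting error of the 18 and is not an interval bound. With no filter on low counts, edgeR's adjusted p was 0.00329 in the wild type and 0.00647 in the mutant over 26464 genes. No stretch of 50 bases was shared between the exons of any pair of the 7 members, GASA2 and GASA3 included.

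Seed transcripts were near 0 in the same libraries. Of 6 seed markers 4 had any count and 0 passed the filter, their summed level was at most 0.292 CPM in any library, and At2S3 and CRU3, which encode a 2S albumin and a cruciferin, were at 0 counts in all libraries.

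The 250 bases upstream of the annotated start are shown for GASA3, which rose, and for GASA5 and GASA6, which fell most, because these members span the range of the ABA response. They were read from the RefSeq TAIR10.1 sequence, 5′ to 3′ on each gene's own strand, at chr4:6073647-6073896 (minus) for GASA3, chr3:639243-639492 (minus) for GASA5 and chr1:28052780-28053029 (plus) for GASA6. Capitals mark ACGTG, the core of the ABA-responsive element bound by bZIP factors, searched on both strands.
GASA3: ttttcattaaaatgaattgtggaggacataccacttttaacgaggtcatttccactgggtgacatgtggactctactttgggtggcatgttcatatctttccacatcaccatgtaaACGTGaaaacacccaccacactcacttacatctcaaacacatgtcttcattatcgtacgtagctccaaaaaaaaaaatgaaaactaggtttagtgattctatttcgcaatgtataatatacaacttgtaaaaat
GASA5: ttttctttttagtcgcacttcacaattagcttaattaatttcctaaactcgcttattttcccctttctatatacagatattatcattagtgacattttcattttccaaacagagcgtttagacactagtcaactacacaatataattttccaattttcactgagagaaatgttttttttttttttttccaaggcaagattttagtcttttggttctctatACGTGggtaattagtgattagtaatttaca
GASA6: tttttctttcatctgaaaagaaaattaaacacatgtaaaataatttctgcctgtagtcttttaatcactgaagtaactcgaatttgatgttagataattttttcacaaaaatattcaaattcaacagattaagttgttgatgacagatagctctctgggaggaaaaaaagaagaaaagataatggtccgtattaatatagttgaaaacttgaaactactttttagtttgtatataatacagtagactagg

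ACGTG occurred once in the windows of GASA3, GASA4 and GASA5, with its first base at -134, -29 and -30 relative to the start, and not in those of GASA1, GASA2, GASA6 or GASA14. The members with a match thus include one that rose and 2 that fell after ABA. Of 27443 windows of the same length upstream of nuclear protein-coding genes, 22.9% held ACGTG. The G-box CACGTG, which contains ACGTG, and the gibberellin-linked motifs TAACAAA and CCTTTT were in none of the 7 windows, against 6.49%, 16.2% and 25.1% of all windows. A match is only a run of letters, and its absence says only that these letters are not in the window.

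GASA6, known to promote growth of the hypocotyl and the germinating embryo downstream of gibberellin, showed the largest fall among the members tested. It lies on the plus strand at chr1:28053030-28054149. The untreated wild type libraries held 32.9, 60.9 and 42.2 CPM and the ABA libraries 1.04, 0.956 and 2.02 CPM. In the mutant the values were 60.0, 30.3 and 29.2 CPM untreated and 1.45, 1.22 and 1.60 CPM after ABA. Every ABA library was below every untreated one in both genotypes. The fall was 33.4-fold in the wild type (log2 fold change -5.06 ± 0.38, adjusted p = 6.3e-07) and had a log2 fold change of -4.80 ± 0.38 in the mutant (adjusted p = 1.19e-06). The annotated 3′ end of GASA6 overlaps AT1G74675, and whether counting used strand was not given.

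GASA5, described as a negative regulator of flowering and of heat tolerance, followed the same course. It lies on the minus strand at chr3:637921-639242. Its levels were 22.5, 37.2 and 29.3 CPM in the untreated wild type and 1.77, 2.25 and 2.11 CPM after ABA. In the mutant they were 22.9, 23.4 and 25.2 CPM and then 1.80, 1.53 and 2.23 CPM. The untreated and ABA libraries did not overlap in either genotype, and the ABA libraries stayed above the 0.129 to 0.185 CPM that 3 counts represent. The log2 fold changes were -3.85 ± 0.21 in the wild type (adjusted p = 7.77e-08) and -3.68 ± 0.21 in the mutant (adjusted p = 1.06e-07).

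GASA14, whose peptide carries a proline-rich stretch ahead of the GASA domain and which has been linked to leaf expansion, is the longest member, with 1996 exonic bases at chr5:4826141-4828384 on the plus strand. The untreated wild type libraries held 53.8, 23.7 and 41.8 CPM and the ABA libraries 10.9, 7.79 and 5.42 CPM. In the mutant the levels were 12.9, 12.8 and 13.4 CPM untreated and 7.16, 7.17 and 3.78 CPM after ABA. ABA libraries were below untreated ones in both genotypes, but the untreated mutant started near the ABA level of the wild type. ABA gave a log2 fold change of -2.31 ± 0.32 in the wild type (adjusted p = 8.25e-05) and of -1.11 ± 0.32 in the mutant (adjusted p = 0.0152). The mutant call was lost without mutant ABA replicate 3 (log2 fold change -0.86, adjusted p = 0.0522).

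GASA4, a gibberellin-induced gene known from meristems and other dividing tissue, showed a smaller fall. It lies on the plus strand at chr5:4944816-4946299. Its levels were 138.4, 199.9 and 148.7 CPM in the untreated wild type and 65.6, 93.6 and 132.2 CPM after ABA. In the mutant they were 135.2, 154.4 and 154.2 CPM and then 69.6, 70.4 and 125.6 CPM. The groups did not overlap, although in each genotype ABA replicate 3 came close to the lowest untreated library. The log2 fold change was -0.74 ± 0.27 in the wild type (adjusted p = 0.0349) and -0.74 ± 0.27 in the mutant (adjusted p = 0.0428). Both calls sat near the threshold: the wild type call was lost with library totals as the only scaling (-0.52, adjusted p = 0.12) and without wild type untreated replicate 2, wild type ABA replicate 1 or 2 or mutant untreated replicate 2 (-0.51 to -0.71), and the mutant call in 8 of 12 leave-one-out fits (-0.59 to -0.80), those without wild type untreated replicate 1 or 3, wild type ABA replicate 2, mutant ABA replicate 1 or 2 or any untreated mutant library.

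GASA1, a gibberellin-responsive family member and among the most abundant per length, varied widely between replicates after ABA. It lies on the minus strand at chr1:28441501-28442435. The wild type libraries held 173.3, 119.2 and 131.5 CPM untreated and 307.0, 192.6 and 107.0 CPM after ABA. In the mutant they held 94.8, 67.1 and 59.6 CPM untreated and 186.9, 150.6 and 92.3 CPM after ABA. In both genotypes ABA replicate 3 lay within or below the untreated range, so the groups overlapped.

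The wild type difference of GASA1 was not called (log2 fold change 0.52 ± 0.34, 95% interval -0.23 to 1.26, adjusted p = 0.222). It was 0.82 and called without wild type ABA replicate 3 (adjusted p = 0.0397), 0.08 without wild type ABA replicate 1, and 0.87 with correction for length and GC content. In the mutant GASA1 rose by a log2 fold change of 0.96 ± 0.35 (adjusted p = 0.0405). That call was lost in 7 of 21 alternatives, with upper quartile scaling (0.84) and in 6 leave-one-out fits (0.72 to 0.96), those without wild type untreated replicate 3, wild type ABA replicate 2, mutant untreated replicate 2 or 3 or mutant ABA replicate 1 or 2.

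**Figure D2:**
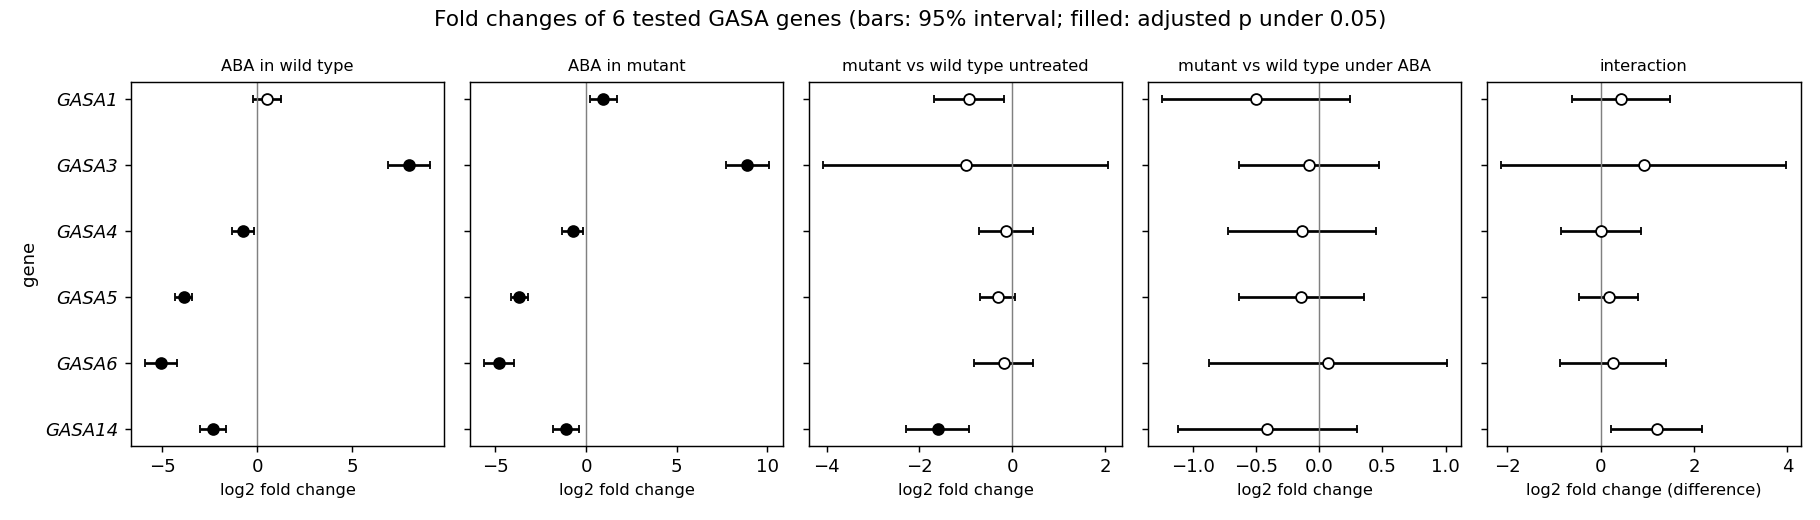
Log2 fold changes of the 6 tested GASA genes in the 4 comparisons between groups and in the interaction, 1 panel each with its own horizontal scale, with filled points for called genes and bars for the 95% interval of edgeR's quasi-likelihood fit. GASA3 lies at 7.97 and 8.90 in the ABA comparisons and GASA6 at -5.06 and -4.80, and the only called genotype difference is that of GASA14 at -1.61 without ABA.

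Without ABA, the mutant differed from the wild type in GASA14 alone among the 6 tested members, with 0 called higher and 1 lower, against 8.77% of all genes called higher and 14.8% lower. GASA14 was 3.05-fold lower (log2 fold change -1.61 ± 0.31, 95% interval -2.28 to -0.93, adjusted p = 0.00317), and all 3 mutant libraries were below all 3 wild type libraries. Its value ran from -1.83 to -1.33 over 21 alternatives and was called in each. GASA1 was also lower in every mutant library than in any wild type library, and of all genes tested 23.9% were lower and 21.3% higher without overlap. Its log2 fold change of -0.94 ± 0.35 (-1.69 to -0.19) was not called (adjusted p = 0.0663). The DESeq2 Wald test called it (adjusted p = 0.0338), as did edgeR on only these 2 groups (adjusted p = 0.0197), as did fits without wild type ABA replicate 1 or 3 or mutant ABA replicate 3, while correction for length and GC content moved it to -0.53 (adjusted p = 0.377).

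GASA4, GASA5 and GASA6 were not called in the same comparison, with log2 fold changes of -0.13 (95% interval -0.72 to 0.45), -0.31 (-0.70 to 0.07) and -0.19 (-0.83 to 0.45). A p that misses the threshold does not show that their levels were alike, and the intervals leave room for moderate differences. GASA3 and GASA2, with at most 2 counts in any untreated library, could not be compared at this depth.

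Under ABA, 0 of the 6 members were called between the genotypes, where 1.79% of all genes were. None had an unadjusted p under 0.05 in edgeR's quasi-likelihood test, and the DESeq2 Wald test also called 0. The log2 fold changes were -0.50 for GASA1 (95% interval -1.24 to 0.25), -0.41 for GASA14 (-1.12 to 0.30), -0.14 for GASA5, -0.13 for GASA4, -0.08 for GASA3 and 0.07 for GASA6. GASA2, not tested, had 34 pooled counts in the wild type and 18 in the mutant, a ratio of 1.71 (0.94 to 3.22, counting error only).

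The difference between the 2 ABA responses was tested as an interaction, in which 0 members and 1.8% of all genes were called, and the DESeq2 Wald test called 0 members too. GASA14 had an interaction of 1.20 ± 0.45 on the log2 scale (95% interval 0.23 to 2.17), the mutant response being the smaller fall. In edgeR's quasi-likelihood test it was the 1 member under 0.05 before adjustment, at 0.0194, and its adjusted p = 0.267. Its responses in the 2 genotypes were thus not shown to differ. The interactions of GASA1, GASA4, GASA5 and GASA6 were 0.44 ± 0.49, 0.00 ± 0.40, 0.17 ± 0.29 and 0.26 ± 0.53. All 5 comparisons draw on the same 12 libraries, and each untreated group serves as control in more than one of them.

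Leaf transcripts moved with these groups. The summed level of 5 leaf markers (RBCS1A, LHCB1.1, LHCB2.1, LHCA1 and RCA) was 22980 to 26040 CPM in the untreated wild type, 6278 to 7171 with ABA, 4893 to 11060 in the untreated mutant and 3414 to 6196 in the mutant with ABA. RBCS1A and RCA made up most of these sums. The sums were thus highest where GASA14, GASA5 and GASA6 were high in the wild type. They were lower in the untreated mutant, as GASA14 was, whereas GASA5 and GASA6 were not called there. All 5 leaf markers were called lower with ABA in the wild type and in the untreated mutant, against 28.2% and 14.8% of all genes. With ABA in the mutant 2 of the 5 were, against 21.1%. The part of these transcripts in the GASA differences was not tested. The sums of 10 root markers ran from 1399 to 2087 CPM and those of 7 meristem markers from 82.2 to 115 CPM over all libraries, but PYK10 and CLV1 made up most of them. Of the 10 root markers, 7 were called lower and 1 higher with ABA in the wild type, where 28.2% and 25.2% of all genes were. In the mutant 5 were called lower and 1 higher with ABA, against 21.1% and 21.5% of all genes. In the untreated mutant 3 were called lower than in the wild type, against 14.8% of all genes. CASP1, a Casparian strip gene, was 5.77-fold lower with ABA in the wild type (adjusted p = 0.000384) and 4.36-fold lower in the untreated mutant (adjusted p = 0.00381), while CASP5 rose with ABA by a log2 fold change of 3.69 in the wild type. Of the 5 meristem markers tested, STM and the root gene PLT1 were called lower with ABA in the wild type (28.2% of all genes). In the mutant PLT1 was called lower with ABA (21.1% of all genes). The part of root and meristem transcripts in the GASA differences was not tested either. Of 5 flower markers 3 passed the filter, with a sum of at most 4.44 CPM. In whole seedlings, fewer cells of a type and less RNA per cell cannot be told apart.

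Levels between genes were compared as CPM per kilobase of exon. In the untreated wild type GASA1 (186 ± 37.3) and GASA4 (163 ± 33.1) were highest and overlapped, followed by GASA6 (49.9 ± 15.7), GASA5 (32.0 ± 7.92) and GASA14 (19.9 ± 7.58), each overlapping its neighbour, and GASA3 and GASA2 were at 0.0607 and 0.0379 (SD, n = 3). After ABA in the wild type the order was GASA1 (266 ± 132), GASA4 (97.5 ± 33.6), GASA3 (18.2 ± 3.97) and GASA14 (4.03 ± 1.39), with GASA5, GASA6 and GASA2 between 1.02 and 2.20 and overlapping. GASA3 thus moved from the lowest 2 to the third place.

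In the untreated mutant GASA4 (148 ± 11.1) stood above GASA1 (97.1 ± 24.4) with no overlap, followed by GASA6 (43.8 ± 19.2), GASA5 (25.7 ± 1.31) and GASA14 (6.53 ± 0.169). After ABA in the mutant GASA1 (189 ± 62.9) and GASA4 (88.9 ± 32.2) overlapped, GASA3 followed at 17.2 ± 3.68, and GASA14 (3.03 ± 0.981), GASA5 (2.001 ± 0.385) and GASA6 (1.56 ± 0.208) came after it, each overlapping its neighbour. GASA2 was last at 0.582 ± 0.253.

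The summed per-length level of the 7 members was 421 to 477 in the untreated wild type, 296 to 502 with ABA, 299 to 358 in the untreated mutant and 275 to 341 in the mutant with ABA. GASA6 made up 7.96 to 14.1% of this sum in the untreated wild type and 0.226 to 0.752% with ABA, and 10.7 to 18.4% and 0.463 to 0.638% in the mutant. GASA3 reached 4.42 to 4.86% with ABA in the wild type and 4.69 to 7.62% in the mutant. The share of GASA1 with ABA ran from 47.6 to 80.4% in the wild type and from 44.1 to 72.2% in the mutant.

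**Figure D3:**
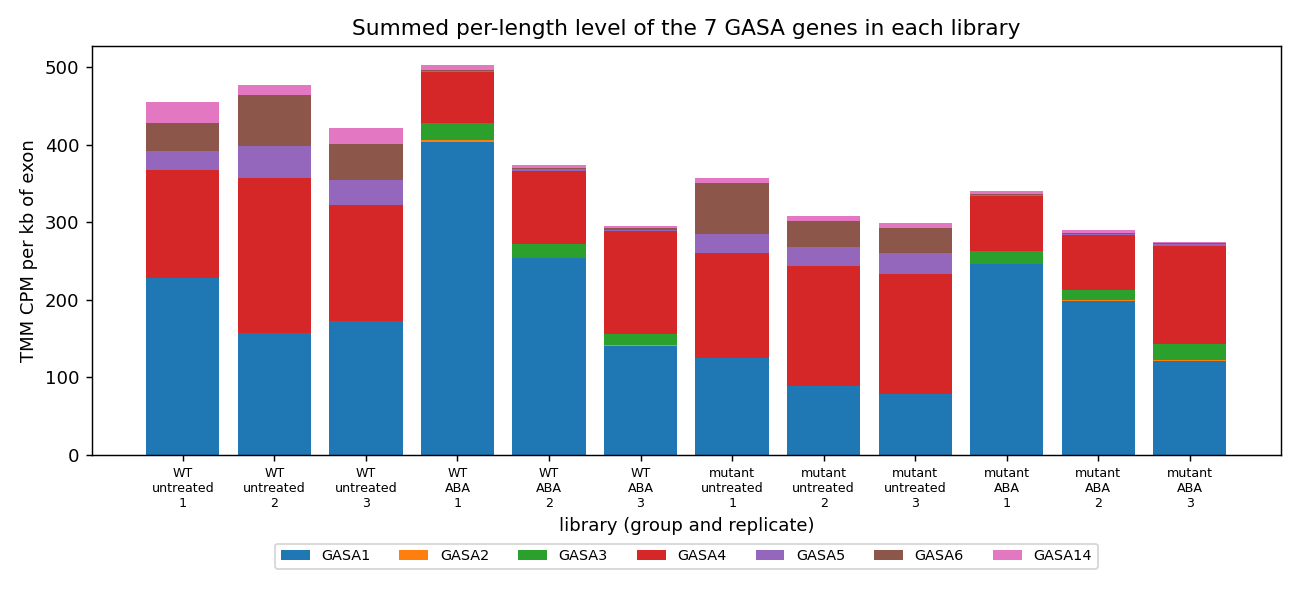
Stacked TMM CPM per kilobase of exon of the 7 GASA genes in each of the 12 libraries, with 1 colour per gene. The purple and brown parts, GASA5 and GASA6, are visible in all untreated libraries and nearly gone in the ABA libraries, where the green GASA3 part appears, and GASA1 and GASA4 together make up most of every bar.

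Another 8 genes of the table belong to the same family, and 4 of them passed the filter. In the wild type, 1 of these 4 was called higher after ABA and 3 lower, against 25.2% and 28.2% of all genes. AT5G59845 went from 1.29 ± 0.398 to 12.5 ± 1.32 CPM (log2 fold change 3.27 ± 0.29, adjusted p = 2.23e-06), and AT1G22690 from 76.9 ± 14.5 to 17.7 ± 4.32 CPM (-2.12 ± 0.20, adjusted p = 3.56e-06). AT2G14900 (-1.23 ± 0.29, adjusted p = 0.00338) and AT3G10185 (-1.41 ± 0.37, adjusted p = 0.00689) fell too. RefSeq calls these genes gibberellin-regulated family proteins. Among the family genes that passed the filter, AT5G59845 and GASA3 were therefore the 2 called higher in the wild type. GASA2, which did not pass it, was called higher by edgeR with no filter (log2 fold change 4.36, adjusted p = 0.00329).

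In the mutant, AT5G59845 went from 1.85 ± 0.896 to 16.0 ± 0.855 CPM (log2 fold change 3.14 ± 0.27, adjusted p = 2.46e-06) and AT1G22690 from 57.0 ± 2.74 to 11.5 ± 2.27 CPM (-2.31 ± 0.20, adjusted p = 2.56e-06). AT2G14900 was called lower (-1.02 ± 0.29, adjusted p = 0.014) although its libraries overlapped and the call was lost without mutant untreated replicate 3 (-0.60) or mutant ABA replicate 1 (-0.91) or 2 (-0.88), and AT3G10185 was not called (-0.89 ± 0.36, adjusted p = 0.0666). None of the 4 was called between the genotypes, with or without ABA, in the fit of all libraries. Of all genes, 8.77% were called higher and 14.8% lower without ABA, and 1.79% were called with it. For AT1G22690 the genotype difference was -0.43 without ABA (95% interval -0.84 to -0.02) and -0.62 with it (-1.05 to -0.19). Its untreated mutant libraries were all below those of the wild type, as for 23.9% of all genes. AT2G14900 was called lower in the untreated mutant without mutant untreated replicate 3 (-0.88, adjusted p = 0.0236). AT1G22690 overlaps AT1G22700 on the other strand and AT3G10185 overlaps AT3G10180, so their reads could be shared where counting did not use strand. Of the remaining 4 genes, AT2G39540 had 3 counts over all libraries, AT2G18420 had 3, AT1G10588 had 1 and AT2G30810 had 0.

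**Figure D4:**
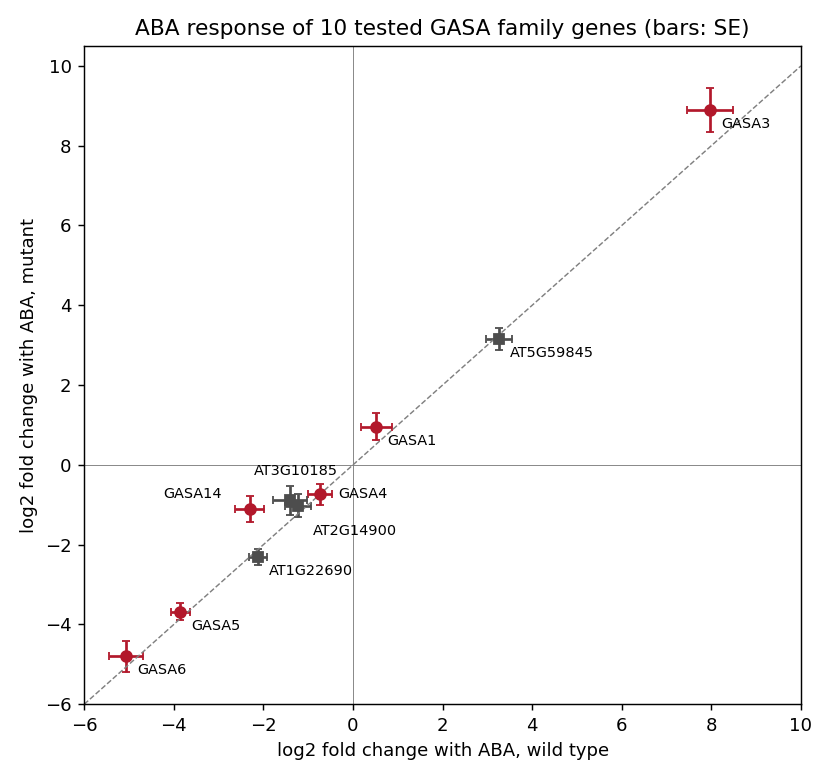
Log2 fold change with ABA in the wild type (horizontal) against the mutant (vertical) for the 10 tested GASA family genes, with bars of 1 SE and the line of equal response. Red circles are the 6 members and grey squares the 4 other family genes. GASA14, at -2.31 and -1.11, lies farther above the line than the other genes that fell.

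Genes that make, sense or relay gibberellin were counted beside the peptides. Of 27 listed genes 24 were tested. In the wild type 8 were called higher after ABA and 9 lower, with a median log2 fold change of -0.18, against 25.2% and 28.2% of all genes and a median of -0.03. GA3OX1 and GA3OX2, which encode the enzymes of the last step to active gibberellin, fell by log2 fold changes of -1.63 ± 0.19 (15.9 to 5.12 CPM, adjusted p = 2.24e-05) and -2.04 ± 0.25 (5.19 to 1.26 CPM, adjusted p = 2.77e-05). In the mutant 8 were called higher and 4 lower, with a median of 0.01, against 21.5% and 21.1% of all genes. There the smallest adjusted p belonged to SCL3, a GRAS protein that promotes gibberellin signalling (0.99 ± 0.14, adjusted p = 0.000126), and to the receptor gene GID1C (0.91 ± 0.15, adjusted p = 0.000502).

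Without ABA, 1 of the 24 genes was higher in the mutant and 6 were lower, with a median of -0.11, against 8.77% and 14.8% of all genes and a median of 0.01. The DELLA gene GAI was at 14.1 CPM in the mutant and 36.5 CPM in the wild type (log2 fold change -1.37 ± 0.12, adjusted p = 1.95e-05), and GA3OX1 at 6.90 against 15.9 CPM (-1.19 ± 0.19, adjusted p = 0.000864). Under ABA 1 was higher, the receptor gene GID1A (0.55 ± 0.11, adjusted p = 0.0252), and 1 lower, GAI (-0.59 ± 0.12, adjusted p = 0.0199), with a median of -0.02, where 1.79% of all genes were called. GAI was also the 1 gene of the list called in the interaction (0.78 ± 0.16, adjusted p = 0.0291). The genotype difference of GAI was thus called in both conditions, and that of GASA14 without ABA only. The interaction of GASA14 was not called, and a relation between GAI and GASA14 was not tested.

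For each tested member the genes with the most similar pattern were found by Pearson correlation of log2 CPM (prior count 2) over the 12 libraries, among 16386 nuclear genes with a mean of at least 5 CPM. The libraries share 4 group means, so high values mainly reflect group differences. GASA6 was most like TNY, an AP2-type transcription factor gene (r = 0.997), and GASA5 most like MEE3 (r = 0.993). With the group means removed these were 0.881 and 0.518. Such values within groups come from the same libraries that picked the genes, so they are no independent check. GASA3 was most like FBH3, a bHLH factor gene (r = 0.997, within groups 0.936), AT3G50400 (r = 0.996, within groups 0.632) and CYP707A1, which encodes an ABA 8′-hydroxylase (r = 0.996, within groups 0.745). GASA14 was most like PDE135 (r = 0.975, within groups 0.864) and CWLP, a cell wall-plasma membrane linker protein gene (r = 0.972, within groups 0.941).

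GASA4 was most like AT4G31810 (r = 0.979, and 0.987 after the group means were removed) and WLIM2a (r = 0.978, within groups 0.955). GASA1 was most like AT3G48115 (r = 0.936, within groups 0.883) and BOA, a clock-linked transcription factor gene (r = 0.936, within groups 0.943). Among the members, GASA5 and GASA6 were closest to each other (r = 0.988), and GASA3 ran opposite to both (r = -0.989 and -0.990). GASA1 and GASA14 had the weakest relation of any pair (r = 0.07).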

How the data were processed

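Paired-end RNA-seq of whole seedlings had been made by the authors. The deposited table holds whole-number counts per gene and library, not normalized, per the file headers and values. The submitters' processing notes name Trim Galore 0.3.3, edgeR and TAIR10. The aligner, counting program, annotation and use of strand were not given in the sources used here.

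Columns were matched to groups by their names, and 3 replicates a group entered. Genes low in all groups were dropped (filterByExpr), leaving 21322 of 33610 genes with 99.964% of the counts. Counts were fitted in edgeR 4.0.16 (R 4.3.3) with TMM scaling and 1 mean per group, and tested by quasi-likelihood F tests with Benjamini-Hochberg adjustment over all genes tested. The common biological coefficient of variation was 0.1846. DESeq2 1.42.0, other scalings and filters, length and GC offsets (mgcv 1.9.3), a replicate block and leaving out each library were alternatives. The procedure was also run on simulated counts in which far fewer genes changed than were called for ABA here. That run cannot show how many calls in these data are false.

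Replicates of a group differed by more than sampling noise. Levels are CPM with TMM scaling, with SD over 3 libraries. Counting intervals cover counting error only, and a floor of 3 counts leaves out the counting error of the higher group.

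The gene identifiers are those of the deposited table, 32843 of which matched RefSeq's TAIR10.1, from which names, exonic lengths, coordinates and upstream sequences were taken. The deposited table gives no coordinates. Motifs were searched in the 250 bases before each start only, and peptide sequences were not analysed here.

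The members, gene lists and tests were chosen with earlier results of these data known. All 7 members are named, the other family genes that passed the filter, in each comparison the 2 called genes of the gibberellin list with the smallest adjusted p, and up to 3 genes most like each member.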

Additional observations from a re-analysis of the deposited data

How the results depend on the processing

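Over 629 recomputed values of the 6 tested members, 570 kept their direction and their side of the threshold, 21 lost a call, 7 gained one, 31 values that were not called changed sign, and 0 were called in the opposite direction. The ABA calls of GASA3, GASA5 and GASA6 in both genotypes, and those of GASA14 in the wild type and between the untreated genotypes, held in every alternative run. The members called after ABA numbered 4 to 6 in the wild type and 4 to 7 in the mutant. The 7 includes GASA2, which was tested by itself only in the fit with no filter on low counts. Between the untreated genotypes 2 members were called in place of 1, GASA1 being the second, with DESeq2, with only the 2 groups compared and with the replicate block, and 1 to 2 when each library was left out. Over all genes, leaving out 1 library gave 2827 to 5658 calls between the untreated genotypes (5022 with all libraries), 167 to 541 under ABA (382) and 129 to 478 in the interaction (384). Under ABA DESeq2 called 755 genes and the 2-group fit 251. In the interaction DESeq2 called 782 genes, and library totals as the only scaling 253. Library totals moved the median of all genes by 0.20 (log2) for ABA in the wild type, 0.25 between the untreated genotypes and -0.19 in the interaction, and upper quartile scaling by -0.12 for ABA in the mutant. The cause of these shifts was not tested. The 4 other family genes were put through the same alternatives after the data had been seen, and AT3G10185 was called for ABA in the mutant in 5 of them.

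The replicate numbers appear only in the column names. Same-numbered libraries deviated together in 6 of 18 pairs (correlation over 0.1; range -0.363 to 0.537), so the numbers were not taken as pairs, and the replicate block gave GASA1 an adjusted p of 0.00868 between the untreated genotypes. Adding the counts of GASA2 to those of GASA3 gave log2 fold changes of 7.52 and 8.94 with ABA. Depth limits GASA2 in all groups and GASA3 without ABA. Each group has 3 libraries. The p-values of the main fit set a group difference against the spread between these replicate libraries, estimated over all 4 groups.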

Other observations

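GASA1 and GASA4 ran opposite to each other among replicates. In each of the 4 groups the library with the highest GASA1 was also the one with the lowest GASA4, and in each it was the library numbered 1. With ABA in the mutant, however, GASA4 was nearly tied between replicates 1 and 2 (69.6 and 70.4 CPM). Their raw counts, 1390 and 1384, had the opposite order. The highest GASA1 library held 1.45 times the lowest in the untreated wild type, 2.87 times with ABA, and 1.59 and 2.03 times in the mutant. For GASA4 these ratios were 1.44, 2.01, 1.14 and 1.80. Over the 12 libraries the correlation of both genes was -0.70, given as a description since the libraries share group means. The order was noticed after the values had been seen, and whether seedling stage, time of harvest or handling differed between libraries was not given in the sources used here.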
